A study of Homo sapiens with 6 samples.

Results

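The untreated libraries of this series describe MDA-MB-468 cells that were given no compound. They were chosen by the label "untreated" and make up 3 of the 6 samples; the samples given DETA/NO entered no step. MDA-MB-468 is an established triple-negative, basal-like breast cancer cell line, so the values describe that line, not breast tissue. Per the labels, the cells grew in DMEM with fetal bovine serum and antibiotics and were collected on day 10. The protocol describes replating every 48 h, with 4 h to adhere, for plates given the compound, and does not describe the untreated plates separately. Total RNA was treated with DNase before library preparation. The labels speak of pooling cells within a replicate but do not say that replicates came from separate cultures, so the spread given here may be technical.

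Breast epithelium has a basal layer marked by keratins 5, 14 and 17 and luminal layers marked by keratins 8, 18 and 19, and hormone receptors mark a subset of the luminal cells. Triple-negative cancers lack the estrogen and progesterone receptors and amplification of ERBB2. EGFR is a receptor tyrosine kinase that is switched on by ligands such as EGF and amphiregulin and relays signals through RAS, the MAP kinases and PI3 kinase. MDA-MB-468 is known for amplification of EGFR and for damage to the tumour suppressors RB1 and SMAD4.

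The files gave 1 normalized read count per gene, from which whole reads were recovered, 32872785 to 34637343 per library. The levels given below are RPKM computed from those reads, that is, reads scaled by exon length and by library total, with exon lengths from GENCODE release 29 on GRCh38. They are means ± SD over the 3 libraries (n = 3). A gene was called expressed when its level was at least 1 in each library. In a gene of which other genes cover at least 90% of the span, a value of 0 could not be read, and such genes, called covered below, were left out of list counts. Pseudogenes were not counted among the other genes in any overlap given here. The counts of list genes stand beside this background: 10035 of 19745 protein-coding genes outside the mitochondrial genome were expressed (50.8%), and among those not covered it was 9962 of 17198 (57.9%). Over all 41315 rows with a gene model, noncoding genes included, 27.6% were expressed. The median level was 8.14 among expressed protein-coding genes, 4316 genes reached a level of 10, 220 reached 100 and 17 reached 500.

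The reads were spread over many genes, with a small leading group. The leading gene by reads, MT-CO1, a subunit of cytochrome c oxidase, held 1.84% to 1.91% of the reads of a library. The first 10 genes held 9.07% to 9.34% and the first 100 held 21.3% to 21.7%. In the libraries in order, 988, 968 and 976 genes were enough to hold 50% of reads, and 5705, 5664 and 5709 to hold 90%. The 2 mitochondrial ribosomal RNAs held 1.47% ± 0.0553. The 83 cytosolic ribosomal protein genes together held 2.21% ± 0.0101, although 8 of them were listed at 0. Long intergenic RNAs held 1.26% ± 0.0253 and antisense RNAs 0.561% ± 0.00841.

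EGFR ranked first in reads among nuclear genes and 5th among all genes. Its normalized counts were 226490, 222549 and 217563, a share of 0.694% ± 0.0164 of all reads. Only the mitochondrial transcripts MT-CO1, MT-ND4, MT-RNR2 and MT-CO2 lay above it, with mean counts of 600175, 504288, 443495 and 304629. By level, which divides by exon length, the 14 leading rows were all encoded in the mitochondrial genome, and MT-CO2 led at 13904. Among nuclear protein-coding genes EGFR was then at rank 14, with levels of 568, 551 and 543.

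The leading nuclear genes by level mixed the cytoskeleton, the translation machinery, calcium-binding S100 proteins and genes next to EGFR. ACTB, cytoplasmic actin, had levels of 1208, 1234 and 1238. S100A9, a subunit of the inflammatory complex calprotectin, had 1159, 1157 and 1220.1, and CD24, a small glycosylated surface protein, had 1111, 1144 and 1179. The ranges of ACTB and S100A9 overlapped, and so did those of S100A9 and CD24, so the order of these genes is not fixed by the 3 libraries. SEC61G, a subunit of the channel that passes proteins into the endoplasmic reticulum, lay clear of CD24 and of the next gene at 969, 955 and 944. EEF1A1, which brings aminoacyl-tRNA to the ribosome, followed at 839.8 ± 15.1 and did not overlap its neighbours in the order. Then came S100A7, or psoriasin, at 708 ± 30.5, ACTG1 at 701 ± 14.4 and the retinoid-responsive gene RARRES1 at 696 ± 5.77, with overlapping ranges. RPS12, at 595 ± 9.40, lay just above the range of YBX1. From YBX1 at 577 ± 6.24 down through HSP90AB1, PABPC1, PTMA, EGFR and CASP14 to TUBB at 543 ± 8.74, each gene overlapped the next. CASP14, a caspase of cornifying epidermis, had 552 ± 9.87. SAT1, KRT19, TMSB4X and VOPP1 closed the leading 20, between 501 and 489.

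**Figure D1:**
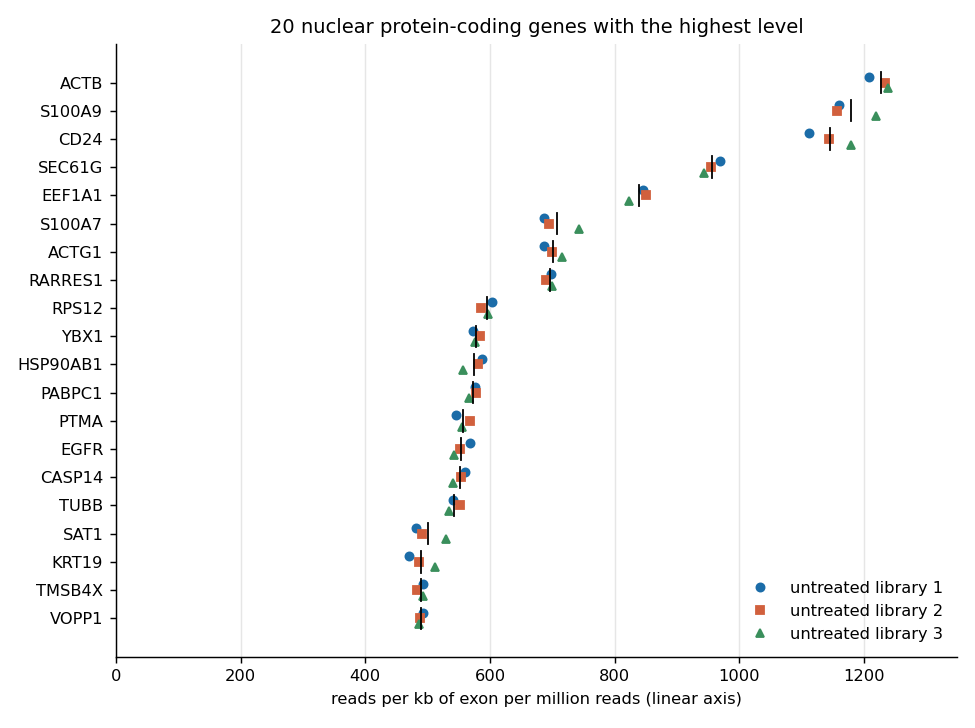
The 20 nuclear protein-coding genes with the highest level, in RPKM on a linear axis; each symbol is 1 untreated library and the black bar is the mean of the 3. Levels run from 489 for VOPP1 to 1227 for ACTB, and library 3 holds the highest value for S100A9, CD24 and S100A7 and the lowest for SEC61G, EEF1A1 and EGFR.

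The promoters of these leading genes were of different kinds, and 4 are shown because they span that range: EGFR and its neighbour SEC61G, and the calcium-binding S100A9 and S100A7. Each is the stretch of 250 bases before the RefSeq start (GRCh38.p14), 5′ to 3′ on the strand of the gene. Capitals mark TATAAA, the core of a TATA box, and the GC box GGGCGG or its reverse complement CCGCCC. EGFR is at chr7:55018767-55019016 on the plus strand, SEC61G at chr7:54759212-54759461 on the minus strand, S100A9 at chr1:153357604-153357853 on the plus strand and S100A7 at chr1:153460652-153460901 on the minus strand.
EGFR: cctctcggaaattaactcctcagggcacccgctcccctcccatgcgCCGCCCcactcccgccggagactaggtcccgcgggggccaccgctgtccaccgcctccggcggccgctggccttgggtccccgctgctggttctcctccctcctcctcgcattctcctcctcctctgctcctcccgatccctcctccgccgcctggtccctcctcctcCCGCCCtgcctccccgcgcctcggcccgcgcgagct
SEC61G: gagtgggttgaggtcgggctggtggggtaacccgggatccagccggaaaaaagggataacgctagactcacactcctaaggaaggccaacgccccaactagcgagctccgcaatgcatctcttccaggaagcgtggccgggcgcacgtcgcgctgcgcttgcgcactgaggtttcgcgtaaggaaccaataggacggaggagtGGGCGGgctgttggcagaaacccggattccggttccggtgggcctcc
S100A9: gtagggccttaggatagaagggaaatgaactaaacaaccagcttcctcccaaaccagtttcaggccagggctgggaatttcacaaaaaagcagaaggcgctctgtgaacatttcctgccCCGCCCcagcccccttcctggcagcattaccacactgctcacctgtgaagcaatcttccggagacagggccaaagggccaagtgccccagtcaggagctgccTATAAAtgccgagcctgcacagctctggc
S100A7: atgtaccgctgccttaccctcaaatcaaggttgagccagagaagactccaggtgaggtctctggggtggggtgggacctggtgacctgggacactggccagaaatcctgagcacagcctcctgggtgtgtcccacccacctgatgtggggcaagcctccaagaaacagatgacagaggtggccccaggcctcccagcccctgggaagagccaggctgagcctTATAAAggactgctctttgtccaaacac
The EGFR stretch held 25 CpG dinucleotides, 2 GC boxes and no TATAAA, and that of SEC61G held 22 CpG and 1 GC box. The S100A9 stretch held 4 CpG, 1 GC box and a TATAAA that began 29 bases before the start, and S100A7 held 1 CpG and a TATAAA that began 28 bases before it.

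The same count over 14873 protein-coding genes with a RefSeq promoter set these in context. TATAAA was searched on both strands, as was GGGCGG; the motifs cannot overlap each other. The median number of CpG was 21 at a level of at least 100, 22 at 10 to 100 and 21 in expressed genes under 10. It was 11 in genes above 0 that were not expressed and 3 in the 1073 genes at 0 that were not covered. TATAAA was present in 11.5%, 5.21%, 5.05%, 10.7% and 24.8% of these sets in the same order, and in 9.09% of all promoters. GGGCGG was present in 57.1% of all promoters, 68.7% of those at a level of at least 100 and 26.1% of those at 0. In the 1460 covered genes at 0 the median was 11 CpG, between the expressed sets and the readable genes at 0. A match is a description of letters, not of a bound site.

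Around EGFR, a block of neighbouring genes on chromosome 7 was read at high levels and fell off on both sides. EGFR itself spans chromosome 7, 55019021 to 55211628 (GRCh38). Before it lies SEC61G, at 956 ± 12.6. After it come LANCL2, a lanthionine synthetase-like protein, at 220.0 ± 1.59, and VOPP1 at 489 ± 3.17. Farther on lie AC092647.5 at 42.1 ± 0.767, with 86.1% of its span under other genes, NIPSNAP2 at 64.7 ± 1.381, the serine synthesis phosphatase PSPH at 86.1 ± 1.09, the chaperonin subunit CCT6A at 484 ± 7.51, SUMF2 at 73.9 ± 1.31 and the mitochondrial protein gene CHCHD2 at 485 ± 9.24. All of these lay above 40, against a median of 8.14 for expressed genes. PHKG1 and NUPR2, which lie among and just after them, had 5.69 ± 0.763 and 5.01 ± 0.767. On the far side of SEC61G, VSTM2A was at 0.00667 ± 0.00295 and POM121L12 was listed at 0. Beyond NUPR2, ZNF479 was listed at 0 and ZNF716 was at 0.00971 ± 0.00893.

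From SEC61G to CHCHD2, 11 of the 13 protein-coding rows were expressed and the remaining 2, ZNF713 and MRPS17, were covered and listed at 0. Together the block held 1.59% ± 0.0233 of all reads, with shares of 1.62%, 1.59% and 1.57% in the 3 libraries. Among its noncoding rows, AC074351.1 next to SEC61G had 19.5 ± 1.43. ELDR, a long noncoding RNA next to EGFR, had 4.10 ± 0.0541, and EGFR-AS1, which lies inside EGFR on the opposite strand, was covered and listed at 0.

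**Figure D2:**
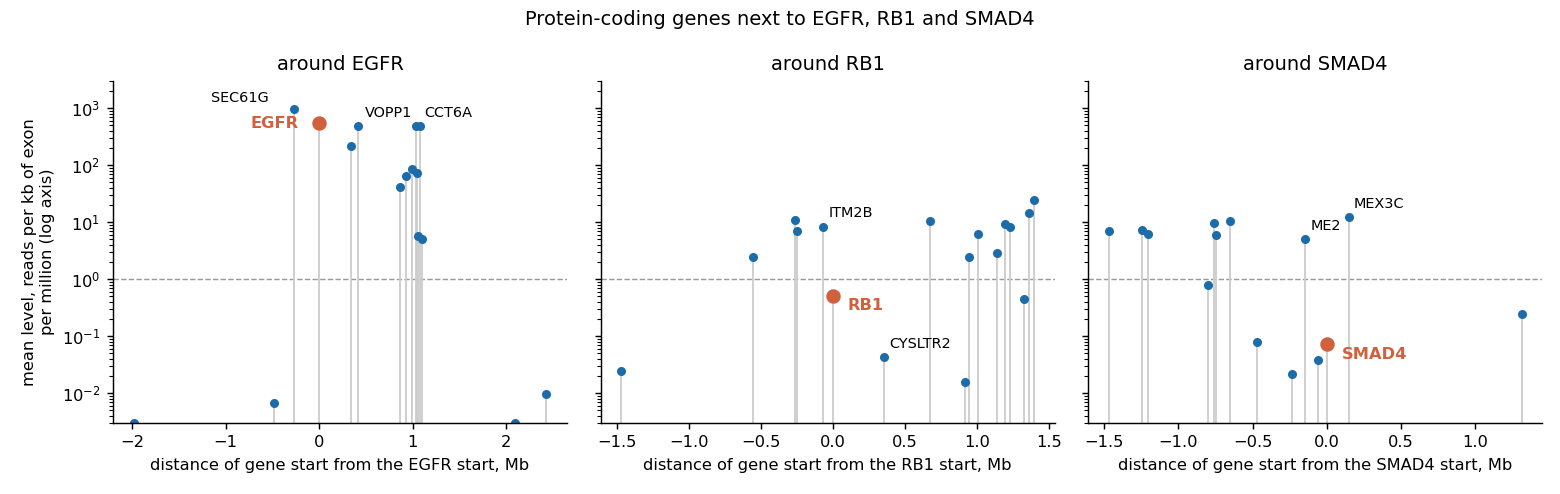
Mean level of protein-coding genes not covered by others, in RPKM on a log axis, against the distance of their start from EGFR, RB1 or SMAD4 in megabases; orange marks the named gene, the dashed line is a level of 1, and values under the axis are drawn at its lower end. Around EGFR 11 genes stand between 5.69 and 956 with drops on both sides. RB1 at 0.507 and SMAD4 at 0.0711 stand below expressed neighbours such as ITM2B and MEX3C, and above others such as CYSLTR2 and MRO.

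A scan of 16982 windows of 10 neighbouring protein-coding genes, added after the EGFR block was seen, placed that block first. The median level in the leading windows was 153, against 2.86 for the median window. The first window from elsewhere ran from S100A8 to S100A14 on chromosome 1 (70.9, rank 7). It holds part of the S100 cluster, where S100A8 had 146 ± 3.18, S100A14 239 ± 10.5 and S100A16 136 ± 8.18. The next outside chromosome 7 began with the cancer-testis gene MAGEA3 on chromosome X (51.5, rank 11). The 4th region was on chromosome 11, from LMO2 to CD44 (44.7, rank 12). Its genes were CAPRIN1 at 149 ± 2.90, NAT10 at 24.8 ± 0.809, ABTB2 at 17.3 ± 0.368, catalase (CAT) at 70.5 ± 2.14, the epithelial factor EHF at 84.4 ± 1.91, APIP at 18.7 ± 0.427, PDHX at 64.6 ± 0.844 and CD44 at 239 ± 4.03, with LMO2 at 1.82 ± 0.0905 and ELF5 at 0.251 ± 0.0658. No copy number was measured in these files, and its part in any of these regions was not tested.

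Among the EGFR family, the other receptors lay far below EGFR. ERBB3, a receptor that needs a partner to signal, had levels of 6.98, 7.21 and 6.87. ERBB2, the HER2 receptor, had 5.59, 5.50 and 5.997, and these ranges did not overlap. ERBB4 had 0.116 ± 0.0164 and was not expressed by the rule. Of 11 ligand genes, 5 were expressed, 45.5% against 57.9% of all genes not covered. AREG, amphiregulin, was highest but varied between libraries, with counts of 926, 1062 and 1251 and a level of 20.5 ± 3.06. TGFA followed with 10.8 ± 0.0962, HBEGF with 7.29 ± 0.321, BTC with 2.42 ± 0.0951 and EGF with 2.27 ± 0.0792. Epiregulin (EREG) was at 0.535 ± 0.0358, and the 4 neuregulin genes lay between 0.136 and 0.331.

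The relay below the receptor was expressed throughout, in 21 of 21 readable genes. ERRFI1, a feedback inhibitor of EGFR, was the highest at 58.6 ± 0.947. NRAS had 55.3 ± 0.706 and HRAS 12.3 ± 0.240. The adaptors GRB2 and SHC1 had 35.2 ± 0.561 and 15.1 ± 0.418, and SOS1, which loads RAS with GTP, had 29.6 ± 0.188. Other feedback genes ranged from DUSP4 at 18.0 ± 0.831 and SPRY2 at 10.1 ± 0.591 to DUSP6 at 1.94 ± 0.329 and SPRY4 at 1.92 ± 0.0822. ETV4 was covered and listed at 0.

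Of 39 other receptor tyrosine kinases that could be read, 22 were expressed, 56.4% against 57.9% of all genes not covered. DDR1, a collagen receptor, led at 65.5 ± 1.87. MET, the receptor of hepatocyte growth factor, had 27.3 ± 0.155, EPHA2 21.96 ± 2.00 and RYK 20.1 ± 0.385. CSF1R, known from macrophages, had 13.8 ± 0.0948, with counts of 2248, 2307 and 2266. Its span holds RPL7P1, a processed copy of a ribosomal protein gene, and its part in this level was not tested. KIT, a marker of luminal progenitors, had 1.93 ± 0.0929. AXL, a receptor often seen in mesenchymal lines, was at 0.153 ± 0.0321. The receptors PDGFRB, TIE1, NTRK3 and FLT4 all lay under 0.02.

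Of 6 steroid hormone receptor genes 3 were expressed, a share of 50% near the 57.9% of all genes not covered. Their median level was 0.758, against 2.48. NR3C1, the glucocorticoid receptor, was the highest at 11.2 ± 0.327. ESR1, the estrogen receptor, had counts of 832, 846 and 823 and a level of 1.88 ± 0.0208, which passes the rule, over a gene span of chromosome 6, 151656691 to 152129619. Reads appeared to be counted over whole gene spans, so this level can include intronic reads. PGR, the progesterone receptor, had 0.00581 ± 0.00518. GREB1 and TFF1, textbook targets of the estrogen receptor, were at 0.120 ± 0.0156 and 0.0715 ± 0.0288. Among 14 other nuclear receptors 12 were expressed, led by PPARD at 15.9 ± 0.754, RXRB at 13.7 ± 0.0340, VDR at 11.6 ± 0.0363 and RARG at 11.6 ± 0.624.

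The tumour suppressors RB1 and SMAD4 were not expressed by the rule, while ITM2B, ME2 and MEX3C beside them were. Other neighbours were not expressed either: CYSLTR2 near RB1 was at 0.0423, and MRO and AC091551.1 near SMAD4 were at 0.0213 and 0.0384. LPAR6 and RCBTB2 next to RB1 and ELAC1 next to SMAD4 were covered and listed at 0. RB1, which holds back E2F factors, had counts of 97.5, 105 and 112 and a level of 0.507 ± 0.0334. Its neighbour ITM2B, which starts 0.0711 Mb before it, had a count of 2873 (level 8.38). SMAD4, the shared partner of the TGF-beta SMADs, had counts of 36.3, 26.5 and 26.8 and a level of 0.0711 ± 0.0137, while ME2 and MEX3C beside it had counts of 2594 and 2922. Other genes cover 35.1% of the RB1 span and 52.5% of the SMAD4 span, so neither gene is covered in full. Of the exon length, 0% of RB1 and 37% of SMAD4 lies under other genes. Part of the exon reads of SMAD4 could therefore not be assigned, while for RB1 the overlap reaches introns alone. An RNA level does not say whether a working protein is made.

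The pathways around these genes were mostly expressed. In the RB pathway 16 of 18 readable genes passed, the exceptions being RB1 and CDKN1C (0.627 ± 0.109). CCND1, the cyclin that starts RB phosphorylation, had 45.9 ± 0.634, E2F1 28.9 ± 1.31, E2F3 27.0 ± 0.771 and E2F2 18.7 ± 1.384. The RB relatives RBL2 and RBL1 had 18.1 ± 0.616 and 8.55 ± 0.0682. CDKN2A, CDKN2B, CDK2 and CCND2 were covered and listed at 0, so nothing can be said of them. Of 19 readable genes of TGF-beta receptors and SMADs 17 passed, with the ligand TGFB2 at 39.98 ± 1.18, TGFBR1 at 15.6 ± 0.365, TGFBR2 at 11.7 ± 0.861 and SMAD3 at 9.72 ± 0.0716. In the PI3 kinase list 17 of 18 readable genes passed, among them PIK3R1 at 15.2 ± 0.147, PIK3CB at 12.9 ± 0.411, PIK3CA at 4.38 ± 0.136 and INPP4B, a phosphatase often lost in basal-like cancers, at 7.98 ± 0.226. The DNA damage response gene GADD45A had 36.1 ± 0.561, and CDKN1A, an inhibitor of cyclin-dependent kinases, 12.8 ± 1.94. MYC had counts of 9768, 10213 and 11114 and a level of 108 ± 6.99, while its relatives MYCN and MYCL were at 0.653 ± 0.149 and 0.0466 ± 0.0240. All 14 readable genes of homologous recombination repair were expressed, with PARP1 at 39.0 ± 0.797, BRCA1 at 9.16 ± 0.0520 and BRCA2 at 6.80 ± 0.272.

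Basal and luminal keratins were both read in the untreated libraries. In bulk RNA, few cells with much of a transcript and many cells with little of it cannot be told apart. Of 19 readable basal genes 15 were expressed, with a median level of 11.3, against 2.48 for all 17198 genes not covered. KRT17 and KRT5, keratins of the basal layer, had levels of 206, 207 and 238 and 193, 198 and 217. For both, library 3 was the highest. The Wnt inhibitor SFRP1 had 74.5 ± 2.13, KRT6B 45.8 ± 5.51, KRT16 27.3 ± 2.62 and FOXC1, a factor of basal-like cancers, 22.8 ± 0.645. KRT6A and KRT6B have near-identical sequences, and how their shared reads were split is uncertain. KRT14, the partner of KRT5 in basal cells, was lower at 9.87 ± 0.171. TP63, the factor that specifies basal cells, was at 0.271 ± 0.0299, and the basal cadherin DSG3 at 0.0163 ± 0.00962. Of 9 readable genes of the contractile myoepithelial programme only TAGLN passed, at 1.59 ± 0.0861. ACTA2, smooth muscle actin, was at 0.139 ± 0.0411, with 72.6% of its span under other genes.

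Of the simple keratins of luminal cells, KRT19 and KRT18 lay above KRT17 and KRT5 in every library, and KRT8 and KRT7 below them. KRT19 had levels of 471, 486 and 512, KRT18 224 ± 14.3, KRT8 173 ± 9.34 and KRT7 129 ± 7.11. KRT80 and KRT81 were covered and listed at 0. All 55 keratin genes, covered ones included, together held 0.569% ± 0.034 of reads. Of these 17 were expressed and 16 were listed at 0. Among all protein-coding genes, covered ones included, 50.8% were expressed. Of 18 readable luminal progenitor and secretory genes 10 passed, 55.6% against 57.9% of all genes not covered, with a median of 1.50 against 2.48. The highest were the protease inhibitor SLPI at 198 ± 3.91, lipocalin LCN2 at 97.8 ± 5.42, EHF and ceruloplasmin (CP) at 25.9 ± 0.222. The milk protein genes CSN2, CSN3 and LALBA were listed at 0. Of 21 genes of hormone-sensing luminal cells 10 passed, 47.6% against 57.9% of all genes not covered, with a median of 1.01 against 2.48. XBP1 had 94.3 ± 3.40, SPDEF 36.2 ± 2.27, GATA3 21.9 ± 0.163 and FOXA1 21.9 ± 0.938. TBX3 and TFF3 were listed at 0 without being covered in this annotation.

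Of 22 junction genes 20 passed, with EPCAM at 161 ± 1.65, the desmosome protein DSP at 144 ± 2.58, the splicing factor ESRP1 at 51.1 ± 0.444 and E-cadherin (CDH1) at 22.5 ± 0.958. Of 18 mesenchymal genes 8 passed, a share of 44.4% near the 57.9% of all genes not covered, with a median of 0.350 against 2.48. The highest was S100A4 at 108 ± 2.83, which lies in the S100 cluster and is also expressed by epithelial tumours. Next came FN1 at 6.60 ± 0.391, LOXL2 at 5.15 ± 0.257 and TGFBI at 3.41 ± 0.301, all expressed. Vimentin (VIM) had 1.96 ± 0.245, and the factors ZEB1 and ZEB2 had 0.131 ± 0.0375 and 0.00158 ± 0.00184. SNAI2 was listed at 0. Among stem cell associated genes 10 of 12 passed, with CD24 and CD44 both high at 1145 and 239. ALDH1A3 had 5.24 ± 0.0293 and ALDH1A1 7.13 ± 0.305.

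Regulators of mammary identity were expressed in 21 of 26 readable cases. After EHF came KLF5 at 70.6 ± 1.06, TFAP2C at 62.6 ± 1.65 and STAT3 at 39.2 ± 0.405. EN1, a homeobox factor of basal-like cancers, had 4.07 ± 0.256 and SOX11 2.08 ± 0.0833. SOX9 and SOX10 were covered and listed at 0. Of 15 S100 and squamous secretory genes 14 passed, with a median of 112. Besides S100A9 and S100A7 these included S100A14, S100A10 at 212 ± 4.54, annexin ANXA1 at 172 ± 6.90 and S100P at 95.4 ± 9.34. S100A8, the partner of S100A9 in calprotectin, had counts of 4636, 4631 and 4798. S100A11 had 0.687 ± 0.103 and did not pass.

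**Figure D3:**
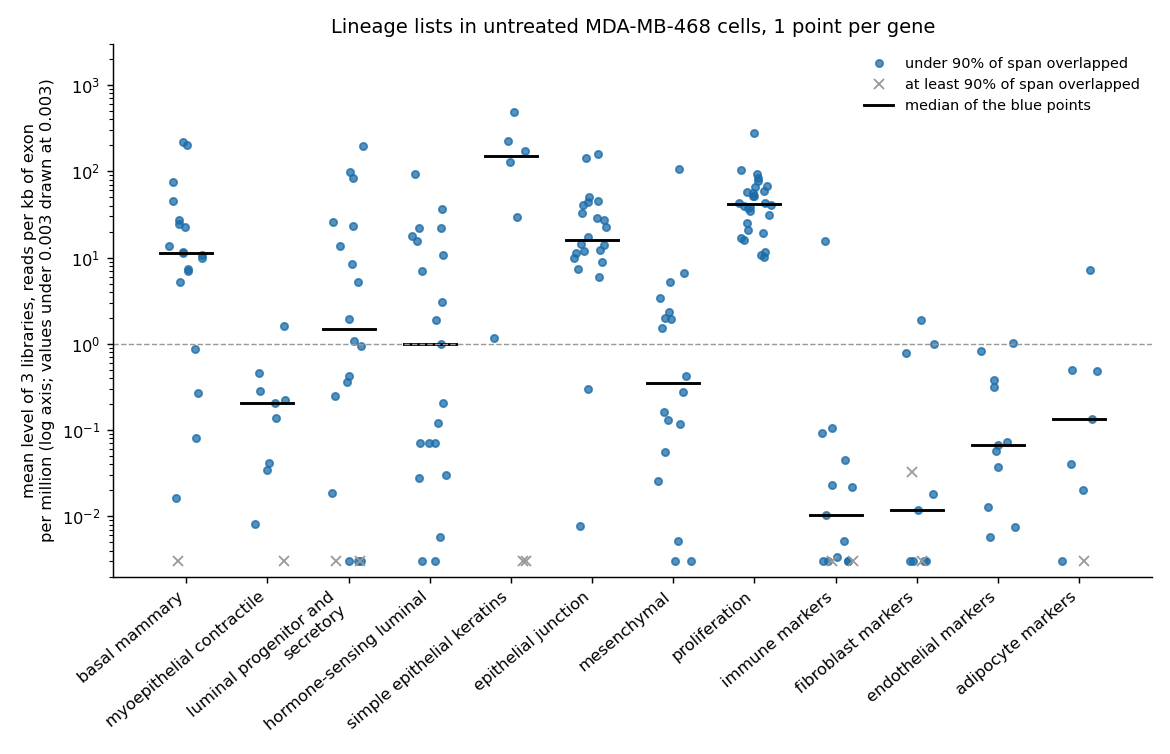
Mean level of each gene of the lineage and cell type lists in the untreated libraries, in RPKM on a log axis; blue points are genes under 90% overlapped, grey crosses are covered genes, black bars are medians of the blue points and the dashed line is a level of 1. The medians are 151 for simple keratins, 41.8 for proliferation, 15.9 for junctions and 11.3 for basal genes, and all of the immune, fibroblast, endothelial and adipocyte medians lie under 1.

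Markers of other cell types were at or near 0, with few exceptions. Of 13 readable immune genes 1 passed, the lipopolysaccharide co-receptor CD14 at 15.5 ± 0.359. The summed level of the immune list was 15.4 to 16.3 in the 3 libraries, nearly all of it CD14. PTPRC, the pan-leukocyte marker, was at 0.0452 ± 0.0138 and CD3D and CD2 were listed at 0. COL1A1 alone passed among 9 fibroblast genes, at 1.91 ± 0.0944, and LUM and POSTN were listed at 0. None of 11 endothelial genes passed, and ESAM was highest at 1.01 ± 0.0498. In the adipocyte list PPARG passed at 7.16 ± 0.486, while ADIPOQ was at 0.00209 ± 0.00361. In the melanocyte list MITF passed at 1.79 ± 0.0771 and TYR was listed at 0. None of 6 hepatocyte and blood genes passed.

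Surface proteins that serve as antibody or drug targets were expressed in 15 of 19 readable cases, 78.9% against 57.9% of all genes not covered. Besides EGFR these included the immune checkpoint ligand VTCN1 (B7-H4) at 176 ± 2.25 and tissue factor (F3) at 53.6 ± 1.41. MUC1 had 44.9 ± 2.96 and NECTIN4 33.9 ± 1.71. CD274, which encodes PD-L1, was at 0.0459 ± 0.0184, and PDCD1LG2, the PD-L2 gene, was listed at 0. Genes of HLA class I were expressed, with HLA-E at 70.6 ± 1.37, HLA-C at 38.2 ± 0.800, HLA-B at 37.2 ± 0.865 and their light chain B2M at 67.4 ± 1.21. Because HLA genes are similar and variable, the split of reads among them is uncertain. Class II was near 0, with HLA-DRA at 0.0154 ± 0.0134, its activator CIITA at 0.0874 ± 0.00944 and HLA-DPB1 listed at 0. TAP1 and TAP2, the peptide transporters, were covered and listed at 0.

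Cancer-testis genes mostly lay under the threshold except for 1 group on chromosome X. In the list, 7 of 21 readable genes passed, 33.3% against 57.9% of all genes not covered. MAGEA3 had counts of 5914, 6004 and 6068 and a level of 105 ± 1.15, MAGEA6 74.3 ± 0.659, MAGEA12 52.7 ± 0.481 and MAGEA2 50.3 ± 1.96. The neighbouring CSAG1, CSAG2 and CSAG3, added after their region was seen, had 65.4 ± 1.34, 29.5 ± 0.280 and 14.4 ± 1.01. These MAGEA and CSAG genes have near-identical copies, so the level of each is uncertain. MAGEA1 and MAGEA4 had 0.11 ± 0.0184 and 0.160 ± 0.0551. PRAME, CTAG1B and MAGEC2 were listed at 0. The remaining genes that passed were LAGE3 and the mitotic kinases TTK and PBK, which dividing cells also use.

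Genes of cell division were read at high levels. All 28 proliferation genes were expressed, with a median of 41.8. PCNA, the clamp of DNA polymerase, had levels of 280.4, 282 and 282. RRM2 had 104 ± 1.79, with 81.0% of its span and 85.4% of its exon length under other genes, so its level is uncertain. CDC20 had 94.0 ± 1.97, TOP2A 83.7 ± 2.75 and MKI67 52.3 ± 1.26. Some immediate early genes, named after their values were seen, were also high. FOS had 189 ± 6.45, JUN 103 ± 0.593 and EGR1 278 ± 34.1. Not all were: EGR2 had 3.81 ± 1.07, under the median of 8.14 for expressed protein-coding genes. EGR1 counts were 24719.6, 27519 and 31623, a wider range than that of FOS (18906, 19665 and 20342).

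The series is concerned with nitric oxide and the RNA mark m6A, and the untreated cells show what was present for each. Of 20 readable m6A genes 19 were expressed. The readers HNRNPA2B1 and HNRNPC led at 264 ± 4.16 and 78.0 ± 0.673. The demethylases ALKBH5 and FTO had 16.8 ± 0.902 and 4.81 ± 0.0835, and the methyltransferase subunits METTL3 and METTL14 had 6.27 ± 0.153 and 5.29 ± 0.107. IGF2BP1 was at 0.00658 ± 0.00336 and did not pass. Of 19 readable genes of nitric oxide synthesis and sensing 10 passed, 52.6% against 57.9% of all genes not covered. None of the synthases did: NOS1 was at 0.0242 ± 0.00195, NOS3 at 0.0186 ± 0.0157 and NOS2 was listed at 0. That 0 does not show that NOS2 is silent. ASS1, which acts in remaking the arginine that synthases use, had 131 ± 3.45. The subunits of the nitric oxide receptor guanylate cyclase GUCY1A1 and GUCY1B1 had 8.09 ± 0.173 and 10.3 ± 0.327, and PDE5A, which breaks down its product, had 11.9 ± 0.536.

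A value of 0 in these files was tied to gene overlap. Of 19745 protein-coding rows, 3600 were at 0 in every library (18.2%). Among rows not covered it was 1512 of 17198 (8.79%), and among covered rows 2088 of 2547 (82%). When other genes lay over a whole span, 1745 of 1772 genes were at 0 (98.5%), and their median count was 0. This held for 646 of 648 genes whose own exons were free of other genes' exons, and for 872 of 874 overlapped on the opposite strand alone. Counts therefore behaved as if each gene was counted over its whole span, without strand, and reads shared by genes were dropped. SDHA, a subunit that every respiring cell uses, was listed at 0 with no overlap in this annotation, pseudogenes aside. A 0 here therefore does not show that a gene is silent. STEAP1B, chosen after its value was seen, had 56893 ± 551 normalized reads, a level of 274. Its span holds EEF1A1P6, a processed copy of EEF1A1, and the part of this copy in that level was not tested.

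**Figure D4:**
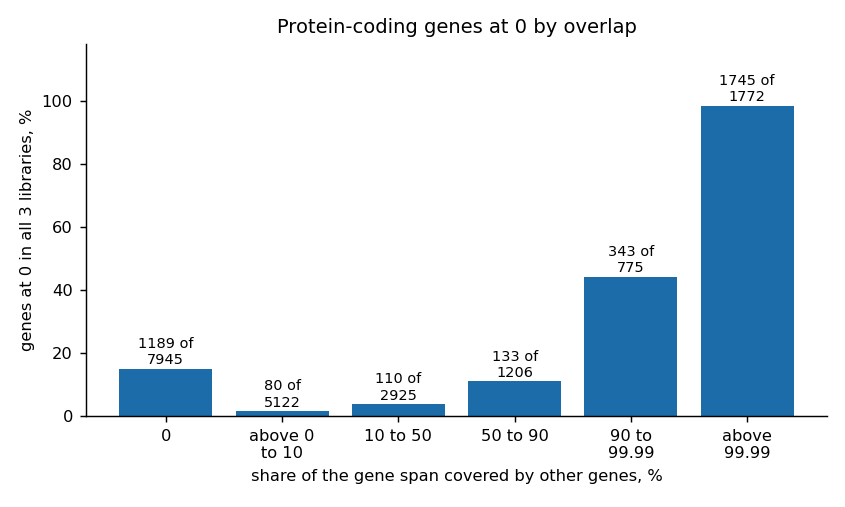
Share of protein-coding genes at 0 in all 3 untreated libraries, in percent on an axis from 0, by the share of the gene span that other genes cover, pseudogenes left out. Counts stand above each bar. The share is 14.97% with no overlap, 1.56% with an overlap of up to 10%, 44.3% from 90% up to just short of the whole span and 98.5% for whole spans.

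The 3 libraries were close to each other. The mean Pearson correlation of log2(value + 1) over the 3 pairs was 0.995 across 45019 rows, which are not independent replicates. The coefficient of variation beyond counting error, as edgeR's common dispersion over 16346 genes gives it, was 2.85%. It was 3.15% without library 1 and 3.41% without library 2, but 1.77% without library 3. At mean counts above 10000, the median coefficient of variation of 447 genes was 1.96%, against 0.803% from counting alone. At 100 to 1000 it was 5.30% against 4.94%, so counting error made up most of the spread of such genes.

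Library 3 stood apart from the other 2 by GC content. Over 10525 protein-coding genes with a mean count of at least 100, its log2 difference from the mean of the others had a correlation of r = 0.44 with transcript GC content, and r was -0.27 and -0.25 for libraries 1 and 2. The median difference of library 3 was -0.04 in the 20% of genes with the lowest GC content and 0.08 in the 20% with the highest. Of the 100 genes with the largest spread beyond counting, library 3 was highest in 63, against 35.4% of all genes. Their median GC content was 52.0%, against 47.7%. The keratins moved with it: their summed share was 0.543%, 0.557% and 0.608% in libraries 1, 2 and 3. Whether GC content has a part in the higher keratin share of library 3 was not tested.

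The genes with the largest spread beyond counting error had modest counts. DACH2 had counts of 175, 84.4 and 145, ISG20, an interferon-induced nuclease, 150.0, 141 and 236, and EGR2, an immediate early factor, 333, 433 and 585. PRSS22, a serine protease, had 768, 750.5 and 1111. Library 3 was highest in ISG20, EGR2 and PRSS22, and library 1 in DACH2. SMIM29, VWA7, LPAR5, PRSS27, C8orf82 and AC105046.1 completed the 10, with coefficients of variation from 23.5% to 29%. At the other end PON2, a paraoxonase, had 3825, 3825 and 3823, a coefficient of variation of 0.0224%, below the 1.58% expected from counting alone. SOS1, SERINC1, SMNDC1 and CEP57 were the next most even, all under 0.06%. These are the smallest values picked from all genes with a mean of at least 1000, over 3 libraries. Whether they differ from what counting error gives was not tested.

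**Figure D5:**
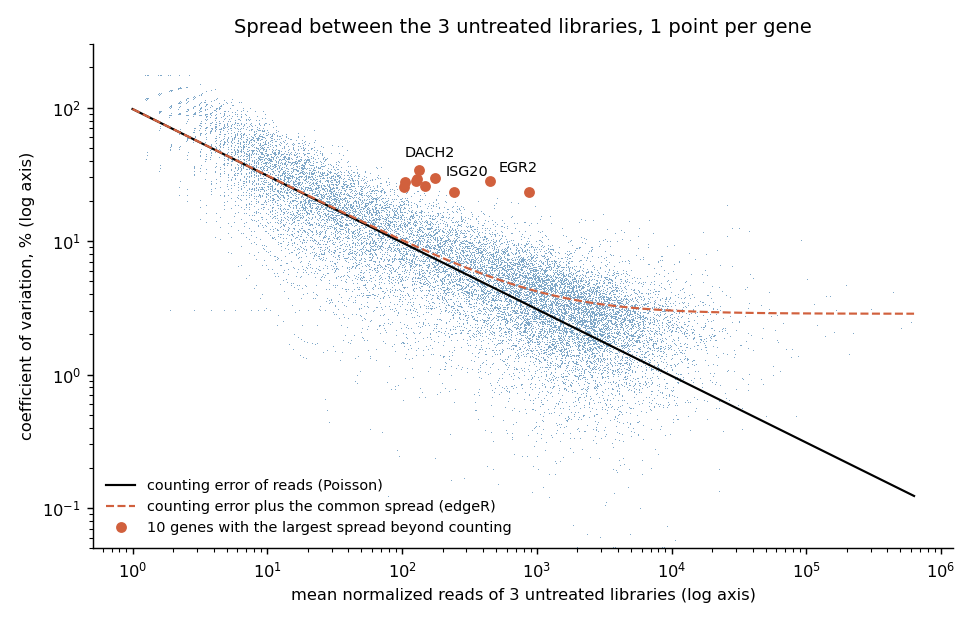
Coefficient of variation of each gene over the 3 untreated libraries, in percent, against its mean normalized reads, both on log axes; the black line is counting error, the dashed line adds the common spread of 2.85%, and orange points are the 10 genes with the largest spread beyond counting. The cloud follows the counting line at low reads and departs from it above 1000 reads, and DACH2, ISG20 and EGR2 lie well above both lines.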

How the data were processed

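Total RNA of 3 untreated MDA-MB-468 samples was analysed; files of the other 3 samples were not read. The authors deposited 1 normalized count (signal) per gene and library, 45019 rows. The submitters' processing notes name, among others, the aligner TopHat2 2.1.1, the read counter featureCounts 2.0.3, the normalizing package DESeq2 1.38.3 and the build GRCh38. For their settings and the annotation, the sources used here say nothing. All values (100%) in the 3 files were multiples of 1 factor per library within 0.01, and dividing by it gave back whole reads.

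Rows were matched to GENCODE release 29 by name (41055) or current symbol (260). The 27 row names turned into dates and rows with no gene model stayed in library totals. Unmatched rows held 1.05% to 1.14% of reads. A count of 3 reads equals 0.0866 to 0.0913 RPM, the limit that a count of 0 allows for counting error alone. Levels are RPKM computed from the recovered reads over the union of exons. Spread was estimated with edgeR 4.0.16 in R 4.3.3 from recovered reads with an intercept only, for genes with a mean of at least 10. On simulated counts for this estimate over 16346 genes, spreads of 2%, 5%, 10% and 20% came back as 1.98%, 5.01%, 9.99% and 20.1%. Python 3.11.15, pandas 2.3.3 and scipy 1.17.1 did the rest. Promoters are from RefSeq; 14873 of 19745 protein-coding rows matched.

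With 1 group no comparison between conditions was made. Genes were named by rule: the 15 highest levels and 10 largest shares, up to 4 highest genes and up to 4 at 0 of each of 35 lists, a fixed set of receptors and drivers with 4 neighbouring rows on each side of some of them, the 10 most variable genes with a mean of at least 100 and the 5 most even with at least 1000. Further list members are named for their role. Results of some genes that the rule names are not reported here. The members and lists were chosen with earlier results of these data known. Alternatives were other lengths, thresholds, scalings and filters, and leaving out each library.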

Additional observations from a re-analysis of the deposited data

How the results depend on the processing

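The share of EGFR was 0.694% of all reads, 0.766% when mitochondrially encoded genes were left out of the total, and 0.685% to 0.701% when 1 library was left out. Its rank among nuclear protein-coding genes was 13 to 15 without 1 library, 17 by the longest transcript or by exons free of other genes (added after seeing the data), and 188 when divided by the whole gene span. Of 10035 expressed protein-coding genes, 6593 remained at a threshold of 5, while 10901 passed at 0.5. With whole spans as length 5422 passed, since introns enter the length. Without 1 library it was 10063 to 10098. The number of genes holding 50% of reads, 977 on average, was 972 to 982 without 1 library and 1227 without mitochondrial genes. The spread between libraries, 2.85%, was 1.77% (without library 3) to 3.41% (without library 2) and 2.83% to 2.85% under the other scalings and filters. The lists held 548 different genes, 514 of them with a row and not covered. Of the list genes 350 were expressed, 271 at a threshold of 5, 370 at 0.5, and 351 to 353 without 1 library. The mean correlation was 0.992 to 0.998 under other pseudocounts and a filter. The median CpG number of expressed promoters was 21 or 22 at the other thresholds, which were added after seeing the data. No paired analysis was possible because only 1 group is described. A level under 0.1 rests on few reads. Levels appeared to count intronic reads over exon length and so can be raised in genes with long introns, and covered genes cannot be read.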
